A study of Mus musculus with 8 samples.

Results

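The Schlafen genes of the mouse were followed in bone marrow-derived macrophages (BMDMs) with and without the DNA exonuclease Trex1, and with and without inhibition of STING. The members were Slfn1, Slfn2, Slfn3, Slfn4, Slfn5, Slfn8 and Slfn9, found by their Ensembl identifiers, which gave 7 of the 54532 genes in the count files. RNA-Seq was performed on polyA+ RNA of 4 groups with 2 libraries each: WT BMDMs given DMSO, Trex1-KO (Trex1-/-) BMDMs given DMSO, Trex1-KO BMDMs given H151 at 500 nM, and Trex1-KO BMDMs given SN-011. H151 and SN-011 are STING antagonists. For SN-011 no dose is in the labels, and the methods of the study give the same figure of 500 for both. The SN-011 samples carry numbers that do not follow on from those of the other groups. A separate preparation or sequencing run was not tested and cannot be told apart from the compound. Treatment lasted 12 h in cells grown for 7 days with L929 cell supernatant from marrow of mice aged 6 to 8 weeks. WT BMDMs were given neither antagonist, so an action of either compound in cells that have Trex1 was not measured. The comparisons ask which Schlafen genes change with loss of Trex1, and how far each antagonist moves them back.

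Schlafen proteins share an N-terminal nuclease-like fold that binds and, in several members, cleaves RNA, including tRNA. In the mouse they come in a short form (Slfn1 and Slfn2), an intermediate form (Slfn3 and Slfn4) and a long form with a helicase-like C-terminal domain (Slfn5, Slfn8 and Slfn9). The genes are known as type I interferon-stimulated genes of T cells and myeloid cells, and in a cell that lacks Trex1 undegraded DNA activates cGAS, which signals through STING to interferon production.

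All 7 genes lie on chromosome 11 within a cluster of 344.4 kb from Slfn5os to Slfn14, at chr11:82942341-83286726 (GRCm38, GENCODE mouse release 21). From the lower coordinate the order is Slfn5 (chr11:82951349-82964840, + strand), Slfn9 (chr11:82978390-82991830, - strand), Slfn8 (chr11:83002158-83020810, - strand), Slfn2 (chr11:83065112-83070678, + strand), Slfn1 (chr11:83116849-83122670, + strand), Slfn4 (chr11:83175186-83190216, + strand) and Slfn3 (chr11:83191330-83215154, + strand). Their promoters are shown first because interferon acts on its target genes through an element with the letters GAAANNGAA (TTCNNTTTC on the other strand) at its core, the interferon-stimulated response element. RefSeq start sites of build GRCm38.p6 matched all 7 members, with 8 starts, as Slfn8 has an additional one. In the window from 250 bases before to 50 bases after each start, the long members Slfn5, Slfn8 and Slfn9 held the core and Slfn1, Slfn2, Slfn3 and Slfn4 did not. The core was present in 8.6% of 32851 promoters of the same length. The stretches of the long members are given 5′ to 3′ on the strand of the gene, with the core in capitals.

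Slfn5 promoter, chr11:82951917-82952008, + strand: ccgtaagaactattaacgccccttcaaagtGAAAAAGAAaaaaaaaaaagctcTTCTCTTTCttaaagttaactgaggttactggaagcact

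Slfn8 promoter, chr11:83020819-83020887, - strand: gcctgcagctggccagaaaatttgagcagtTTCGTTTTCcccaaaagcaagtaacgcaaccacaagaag

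Slfn9 promoter, chr11:82991836-82991904, - strand: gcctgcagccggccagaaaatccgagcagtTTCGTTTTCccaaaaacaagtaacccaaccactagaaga

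Slfn5 held the core on both strands, 155 and 132 bases upstream of its start, in a stretch that lies in the body of a non-coding Slfn5 transcript with an earlier start. In Slfn9 the core began 44 bases upstream, and in Slfn8 it began 47 or 135 bases upstream, according to which of its starts is used. The 250 bases before the first start of Slfn8 and the start of Slfn9 were 80.0% identical, against 42.9 to 50.4% for every other pair of members. The STAT dimer element with the letters TTCNNNGAA, which reads the same on both strands, was found in no member and in 8.3% of all promoters. No match says only that these letters are not in these windows.

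A search for runs of letters in common, made after the sequences had been seen, found acttcctgg in the promoters of Slfn1, Slfn2, Slfn3 and Slfn4 and in none of the long members. It began 74, 55, 42 and 73 bases upstream of their starts and was present, on either strand, in the 250 bases before the start in 0.7% of all promoters. Slfn1 and Slfn4 shared the longer run acttcctggagtgac, found in 2 of the 32851 promoters, which are these. Each run was taken as the longest shared by a chosen set of members, so these shares are descriptions and carry no test. The run of 9 letters is in capitals in the stretches below.

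Slfn1 promoter, chr11:83116716-83116784, + strand: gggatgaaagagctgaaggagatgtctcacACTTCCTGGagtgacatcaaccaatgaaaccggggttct

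Slfn2 promoter, chr11:83065027-83065095, + strand: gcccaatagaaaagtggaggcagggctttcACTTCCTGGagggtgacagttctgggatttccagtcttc

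Slfn3 promoter, chr11:83191258-83191326, + strand: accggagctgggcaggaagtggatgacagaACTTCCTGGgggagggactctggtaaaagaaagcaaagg

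Slfn4 promoter, chr11:83175083-83175151, + strand: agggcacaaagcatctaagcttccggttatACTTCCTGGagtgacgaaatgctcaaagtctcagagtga

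The libraries held 11845470 to 17284863 counts in genes, so that 1 count was worth 0.0582 to 0.0849 CPM (counts scaled to the size of the library). Trex1 had 0 counts in every library, WT included, and all 1147 of its exon bases lie within exons of Atrip, so the counts could not check the genotype and the group names rest on the labels. The 8 macrophage markers summed to between 30092 and 32363 CPM in all libraries, of which Lyz2 alone made up more than any other marker, at 20296 to 23079 CPM. In Trex1-KO 3 of the 8 were called higher than in WT by edgeR, where 9.27% of all genes tested were called higher. They were Fcgr1 (log2 1.14), Cd68 (0.44) and Adgre1 (0.19). DESeq2 also called 3 and the edgeR exact test called 2. Fcgr1 was at 241 and 225 CPM in WT and 493 and 533 CPM in Trex1-KO. It was the only 1 called lower with H151, at 335 and 391 CPM, where 1.84% of all genes were. The same held with SN-011, at 347 and 385 CPM, where 2.22% of all genes were called lower. The sums of the neutrophil, monocyte and stromal lists differed between WT and Trex1-KO libraries. The 9 neutrophil markers summed to 7.88 to 8.68 CPM in WT and 51.8 to 73.1 CPM in Trex1-KO. The 3 monocyte markers summed to 17.5 to 21.1 and 79.1 to 80.1 CPM, and the 6 stromal markers to 2091 to 2286 and 858 to 1058 CPM. Col1a1 and Col1a2 made up most of the stromal sum, at 949 and 862 CPM and at 1175 and 1089 CPM in WT. With Col3a1 and Pdgfrb they were lower in Trex1-KO (log2 -1.30 to -1.07). Dcn went the other way but was not called (log2 0.455), at 1.77 and 2.58 CPM in WT and 3.09 and 2.90 CPM in Trex1-KO. Lum, at 0.442 and 0.339 CPM in WT and 0.528 and 0.791 CPM in Trex1-KO, was not tested. The T cell marker Cd4 was lower in Trex1-KO (log2 -0.68, edgeR adjusted p = 0.000329). It was at 33.9 and 33.3 CPM in WT and 18.2 to 21.7 CPM in the 6 Trex1-KO libraries. Of the 5 dendritic cell markers 2 were tested, and they went in opposite directions. Xcr1 was higher (log2 2.88, edgeR adjusted p = 0.00965), at 0.221 and 0.0678 CPM in WT and 1.21 and 0.989 CPM in Trex1-KO. Zbtb46 was lower but not called (log2 -1.32, edgeR adjusted p = 0.0951). It was at 1.91 and 0.949 CPM in WT and 0.604 and 0.528 CPM in Trex1-KO. The dendritic sums overlapped, at 1.49 to 2.36 CPM in WT and 1.71 to 1.89 CPM in Trex1-KO. In bulk RNA, more cells of a type and more RNA per cell cannot be told apart. The study describes the replicates as independent experiments, but the labels do not say whether the 2 libraries of a group came from different mice, so the p-values below measure the spread between libraries.

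Loss of Trex1 was accompanied by higher expression of every member. In the comparison of Trex1-KO with WT, 7 of 7 members were called higher (edgeR quasi-likelihood test, adjusted p under 0.05 over 14591 genes), where 9.27% of all genes tested were called higher. The members' log2 fold changes ran from 1.04 to 5.08 with a median of 1.61, against a median of -0.002 over all genes tested. Values per library are CPM after TMM normalisation, with replicate 1 before replicate 2. The libraries of the 2 groups did not overlap for all 7 members and for 56.1% of all genes tested, so a lack of overlap is given as a description.

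Slfn4, an intermediate member known from myeloid cells, was at 5.74 and 4.61 CPM in WT and at 174.9 and 173.4 CPM in Trex1-KO. The groups were far apart, and the increase was 33.7-fold (95% interval 25.5 to 44.6), or 5.08 ± 0.19 on the log2 scale (SE; edgeR adjusted p = 8.33e-10). It was the highest increase among the members and ranked 16 of 14591 genes by log2 fold change. Slfn1, a short member first described in the growth arrest of thymocytes, was at 3.31 and 2.91 CPM in WT and at 82.8 and 77.4 CPM in Trex1-KO. This was a 25.7-fold increase (95% interval 20.1 to 32.9), or 4.68 ± 0.16 on the log2 scale (SE; edgeR adjusted p = 7.05e-10), and it ranked 22 of 14591 genes. The 95% intervals of both genes lay above those of the other 5 members.

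The neutrophil and monocyte markers were higher in the same libraries. Of the 9 neutrophil markers, 5 passed the filter on low counts. All 5 were called higher, where 9.27% of all genes tested were, with a median log2 fold change of 2.89. S100a9, which codes for a calcium-binding protein, went from 2.72 and 3.19 CPM in WT to 17.1 and 26.7 CPM in Trex1-KO. Ly6g, which defines mature neutrophils, was at 0 CPM in both WT libraries and at 0.0755 and 0 CPM in Trex1-KO. Among the 3 monocyte markers, Ccr2 and Ly6c2 were called higher, at log2 fold changes of 2.04 and 3.29. The part of these cells in the Slfn1 and Slfn4 values was not tested.

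The other members rose less. Slfn3, the intermediate neighbour of Slfn4, was at 6.70 and 5.15 CPM in WT and at 28.1 and 24.1 CPM in Trex1-KO. Both Trex1-KO libraries were above both WT libraries, with a 4.41-fold increase (log2 2.14 ± 0.15 SE; edgeR adjusted p = 3.07e-07). Slfn2, the short member whose loss in mice ends the quiescence of T cells and monocytes, was at 241.1 and 210.0 CPM in WT and at 496.6 and 433.9 CPM in Trex1-KO. Its groups did not overlap either, and its 2.06-fold increase was the smallest of the family (log2 1.04 ± 0.083 SE; edgeR adjusted p = 8.77e-07).

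The long members moved by similar amounts. Slfn5, a nuclear member, was at 301.0 and 244.9 CPM in WT and at 810.2 and 768.8 CPM in Trex1-KO, a 2.89-fold increase (log2 1.53 ± 0.095 SE; edgeR adjusted p = 8.7e-08). Slfn8 was at 120.2 and 105.6 CPM in WT and at 307.9 and 289.7 CPM in Trex1-KO, a 2.65-fold increase (log2 1.40 ± 0.072 SE; edgeR adjusted p = 1.47e-08). Slfn9, its close neighbour, was at 25.1 and 17.5 CPM in WT and at 67.4 and 62.2 CPM in Trex1-KO, a 3.05-fold increase (log2 1.61 ± 0.13 SE; edgeR adjusted p = 1.28e-06). In each of the 3 genes the groups were separate, and the 95% intervals of the 3 log2 fold changes overlapped, from 1.25 at the lowest bound to 1.89 at the highest.

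**Figure D1:**
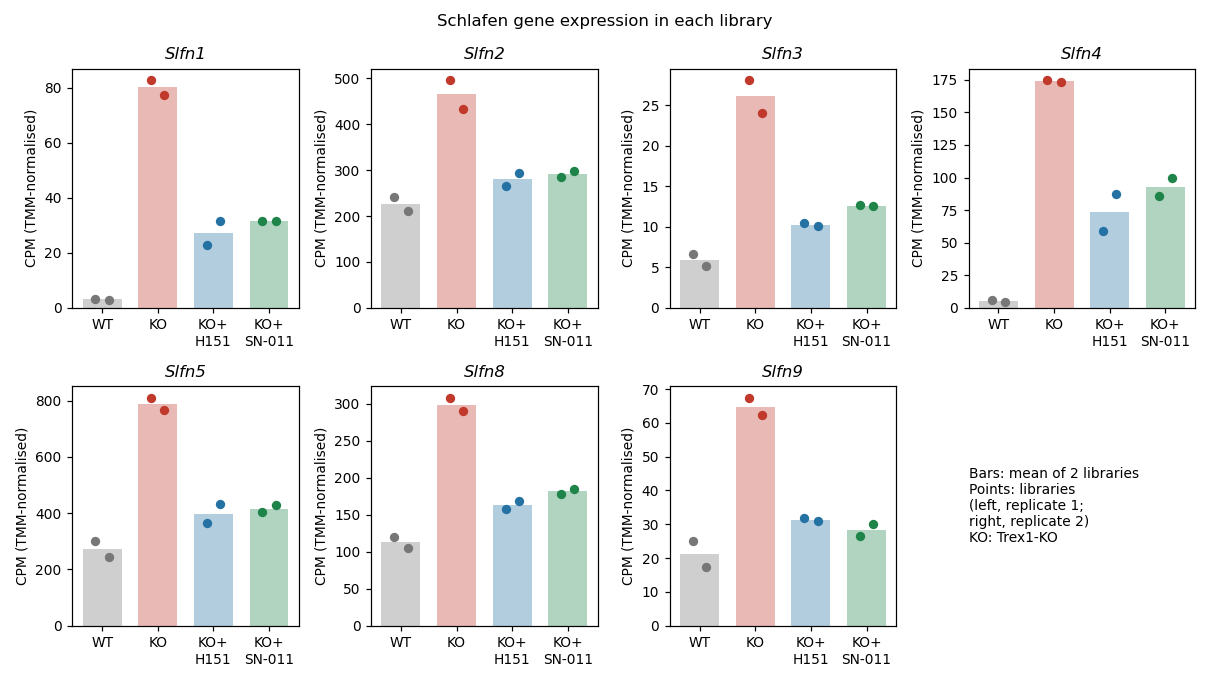
CPM after TMM normalisation of the 7 Schlafen genes in each library, with a separate linear axis from 0 for each gene. Points are the 2 libraries of a group and bars are their mean, and in every panel both Trex1-KO libraries lie above the other 6.

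The presence of the interferon element core did not follow the size of the increase. The 3 members with the core rose by 1.40 to 1.61 on the log2 scale, and the 4 members without it held both the smallest increase, that of Slfn2, and the highest, that of Slfn4. These are descriptions of 7 genes in 1 window and carry no test.

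The balance within the family differed between WT and Trex1-KO. Slfn1 and Slfn4 together took 1.27 and 1.29% of the counts of the 7 members in the WT libraries and 13.1 and 13.7% in the Trex1-KO libraries. Slfn5 took 42.8 and 41.5% in WT and 41.2 and 42.0% in Trex1-KO. Slfn3 had more counts than its neighbour Slfn4 in both WT libraries, and 16.1 and 13.9 counts for each 100 of Slfn4 in the Trex1-KO libraries.

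Levels of different genes were compared as CPM per kilobase of exon. Slfn2 was the highest in all 4 groups, at 136 ± 13.2 in WT and 280 ± 26.6 in Trex1-KO (SD, n = 2), followed by Slfn5 and then Slfn8. In WT the lower ranks were Slfn9 (3.57 ± 0.90), Slfn3 (1.74 ± 0.32), Slfn1 (1.67 ± 0.15) and Slfn4 (1.31 ± 0.20), and the libraries of Slfn3 and Slfn1 overlapped. Slfn4 was thus the lowest of the 7 in WT and the fourth in Trex1-KO, at 43.9 ± 0.27 per kilobase, where it overlapped with Slfn1 at 43.0 ± 2.03. Slfn3 was the lowest in all 3 groups of Trex1-KO libraries.

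**Figure D2:**
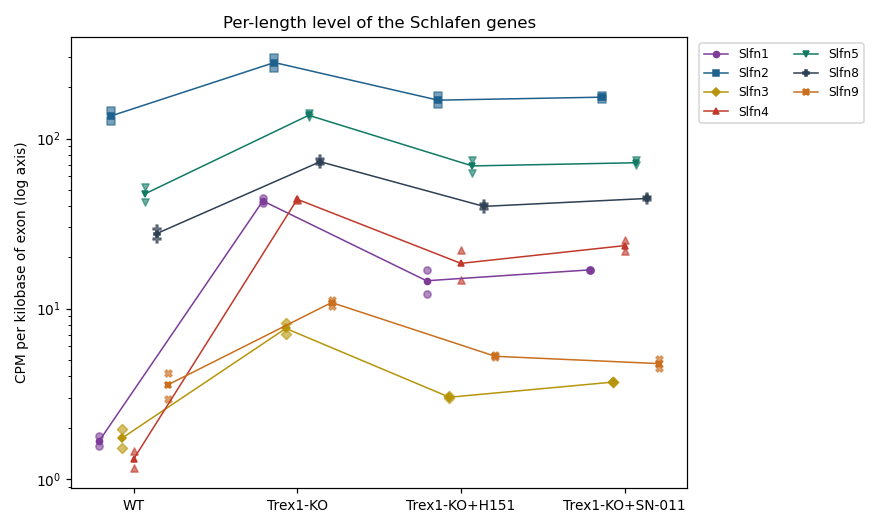
CPM per kilobase of exon of the 7 Schlafen genes, on a log axis, in the 4 groups. Lines join group means and points are libraries; Slfn1 and Slfn4 start among the lowest in WT and stand between Slfn8 and Slfn9 in all Trex1-KO groups.

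Slfn10-ps, a transcribed pseudogene between Slfn8 and Slfn2, was at 10.2 and 9.49 CPM in WT and at 23.5 and 20.3 CPM in Trex1-KO, and it was called higher (log2 1.15 ± 0.13 SE; edgeR adjusted p = 2.16e-05). Slfn14, Slfnl1 and the antisense gene Slfn5os had 0 to 4 counts in each library and were not tested. Reads could be assigned to single members for most of their length. Of all windows of 150 bases, the length of 1 read, at most 1.46% in a member were also found in another gene, except in Slfn5, where 5.46% were shared with Slfn5os, which overlaps 559 of its exon bases on the other strand. In windows of 50 bases the share rose to between 0.61% in Slfn1 and 16.0% in Slfn3, so a small part of the Slfn3, Slfn4, Slfn8 and Slfn9 counts could belong to a relative.

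Of the 10 tested genes nearest to the cluster, 5 on each side, 1 was called in the comparison of Trex1-KO with WT, near the 9.27% of all genes called higher. It was Ccl5, a chemokine gene (log2 1.71, edgeR adjusted p = 0.00343). Their median log2 fold change was -0.05. Inside the cluster 4 further genes were tested, which were looked up after the values of the members had been seen. Gm11425 was called higher (log2 1.70, edgeR adjusted p = 0.000669), Gm20234 was at 1.78 but missed the threshold (edgeR adjusted p = 0.0511), and AI662270 and Gm11427, on the far side of Slfn3, were at 0.20 and 0.30 and were not called. No tested gene between Slfn3 and the end of the cluster was called.

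**Figure D3:**
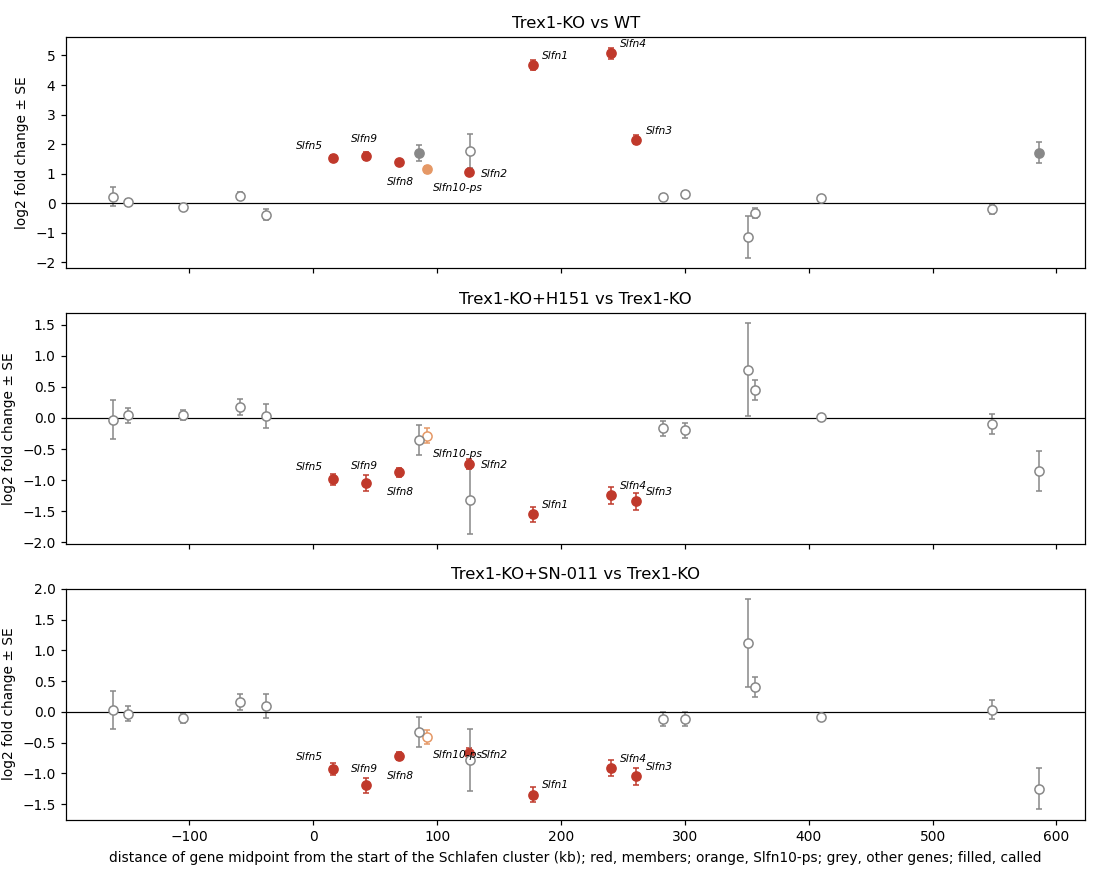
Log2 fold change with SE of the Schlafen genes (red), Slfn10-ps (orange) and other tested genes (grey), against the distance in kb of the gene midpoint from the start of the Schlafen cluster. Filled points passed the edgeR threshold; all 7 members are filled in all 3 comparisons, and Ccl5, far to the right, is filled in the comparison of Trex1-KO with WT.

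Both antagonists lowered the whole family. With H151, 7 of 7 members were called lower than in Trex1-KO, where 1.84% of all genes tested were called lower. The members' log2 fold changes ran from -1.55 to -0.73 with a median of -1.05, against 0.001 over all genes. With SN-011, 7 of 7 members were called lower, where 2.22% of all genes tested were called lower. Here the log2 fold changes ran from -1.34 to -0.68 with a median of -0.93, against 0.009 over all genes. Libraries did not overlap with Trex1-KO for 35.4% of all genes with H151 and for 43.4% with SN-011. The 2 comparisons use the same Trex1-KO libraries.

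Slfn1 had the largest fall on the log2 scale with either compound, but its 95% intervals overlapped those of other members. With H151 its interval was -1.811 to -1.288, against -1.649 to -1.035 for Slfn3. With SN-011 it was -1.602 to -1.088, against -1.473 to -0.921 for Slfn9. Slfn1 was at 22.7 and 31.6 CPM with H151 and at 31.6 and 31.4 CPM with SN-011. All of these were well under the lower Trex1-KO library at 77.4 CPM. This was a log2 fold change of -1.55 ± 0.12 with H151 (SE; edgeR adjusted p = 1.15e-05) and of -1.34 ± 0.12 with SN-011 (SE; edgeR adjusted p = 2.94e-05). Slfn4 was at 58.7 and 87.7 CPM with H151 and at 86.1 and 100 CPM with SN-011. Again no library reached the Trex1-KO libraries, and the log2 fold change was -1.24 ± 0.13 with H151 (SE; edgeR adjusted p = 0.000101) and -0.91 ± 0.13 with SN-011 (SE; edgeR adjusted p = 0.00132). Without SN-011 replicate 1, the fall of Slfn4 with SN-011 was no longer called (log2 -0.80, edgeR adjusted p = 0.0648).

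Neutrophil markers stayed at 66.6 to 67.2 CPM with H151 and at 66.0 to 81.9 CPM with SN-011, and none of the 5 tested was called against Trex1-KO with either compound, by edgeR, by DESeq2 or at an unadjusted p under 0.05. The monocyte markers summed to 66.8 to 69.7 and 69.9 to 80.0 CPM, and edgeR and DESeq2 called none of the 3, with 1 at an unadjusted p under 0.05 with H151 and 0 with SN-011. The part of these cells in the falls of Slfn1 and Slfn4 was not tested.

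Slfn3 was at 10.4 and 10.1 CPM with H151 and at 12.7 and 12.6 CPM with SN-011, and its log2 fold changes were -1.34 and -1.04. Slfn2 showed the smallest falls, to 264.6 and 294.6 CPM with H151 and to 284.6 and 297.6 CPM with SN-011, at log2 fold changes of -0.73 and -0.68. All of these libraries were below both Trex1-KO libraries.

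Among the long members, Slfn5 was at 363.7 and 432.1 CPM with H151 and at 402.6 and 428.4 CPM with SN-011, and its log2 fold changes were -0.99 and -0.93. Slfn8 was at 158.2 and 168.3 CPM with H151 and at 178.3 and 185.2 CPM with SN-011, with log2 fold changes of -0.87 and -0.72. Slfn9 was at 31.8 and 30.8 CPM with H151 and at 26.7 and 30.1 CPM with SN-011, with log2 fold changes of -1.05 and -1.20. No treated library of the long members overlapped with Trex1-KO, and the edgeR adjusted p-values of these 5 members were 1.15e-05 to 0.000269 with H151 and 5.84e-05 to 0.000607 with SN-011. Slfn10-ps, at 17.4 and 18.4 CPM with H151 and 16.3 and 16.7 CPM with SN-011, was not called with H151 (log2 -0.28, edgeR adjusted p = 0.431) or with SN-011 (log2 -0.41, edgeR adjusted p = 0.121).

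Neither antagonist brought the family to the WT level. With H151, 7 of 7 members were still called higher than in WT, where 6.79% of all genes tested were called higher. With SN-011, 6 of 7 were called higher, where 6.18% of all genes tested were called higher, and Slfn9 was at a log2 fold change of 0.41 (95% interval 0.11 to 0.71; edgeR adjusted p = 0.0774), which was 0.68 and called without WT replicate 1 (edgeR adjusted p = 0.00748) and 0.16 without WT replicate 2 (edgeR adjusted p = 0.566). Libraries did not overlap with WT for all 7 members with either compound, and for 52.1% of all genes with H151 and 54.3% with SN-011. In the other comparison with WT, Slfn9 was at 0.56 with H151 (edgeR adjusted p = 0.0167).

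Slfn4 and Slfn1 stood out in what was left. Slfn4 was 14.2-fold above WT with H151 (log2 3.83 ± 0.19 SE; edgeR adjusted p = 4.26e-08) and 18.0-fold above WT with SN-011 (log2 4.17 ± 0.19 SE; edgeR adjusted p = 1.82e-08). Slfn1 was 8.78-fold above WT with H151 (log2 3.13 ± 0.18 SE; edgeR adjusted p = 1.13e-07) and 10.1-fold above WT with SN-011 (log2 3.34 ± 0.18 SE; edgeR adjusted p = 5.41e-08). The other members were between 1.24-fold (Slfn2) and 1.74-fold (Slfn3) above WT with H151, and between 1.29-fold (Slfn2) and 2.14-fold (Slfn3) among those called with SN-011. Slfn1 and Slfn4 still took 8.94 and 11.3% of the family's counts with H151 and 11.5 and 12.1% with SN-011. The neutrophil marker sums given above were also high in all of these libraries relative to WT, and their part in the remaining Slfn1 and Slfn4 levels was not tested.

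**Figure D4:**
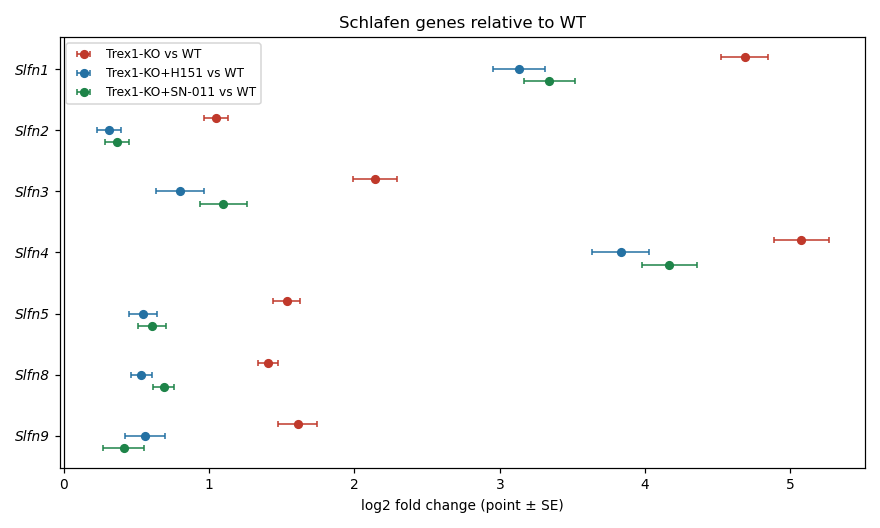
Log2 fold change over WT, with SE, of the 7 Schlafen genes in Trex1-KO (red), with H151 (blue) and with SN-011 (green). For every gene both treated groups lie between 0 and the Trex1-KO value, and Slfn1 and Slfn4 remain above 3.

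Some calls close to WT were lost with 1 library left out. Without WT replicate 2, Slfn2 (log2 0.20, edgeR adjusted p = 0.264), Slfn3 (log2 0.61, edgeR adjusted p = 0.0841) and Slfn9 (log2 0.31, edgeR adjusted p = 0.192) were no longer called with H151, which left 4 of 7 members. Slfn2 was also not called with H151 without H151 replicate 2 (log2 0.22, edgeR adjusted p = 0.126), nor with SN-011 without WT replicate 2 (log2 0.26, edgeR adjusted p = 0.134) or SN-011 replicate 2 (log2 0.33, edgeR adjusted p = 0.111). Slfn1, Slfn4, Slfn5 and Slfn8 were called against WT with either compound with each library left out.

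On the linear scale the members were more alike. The difference in mean CPM between Trex1-KO and WT was taken as 100, and what was left of it was computed for each compound. With H151, 31.3% was left for Slfn1, 22.6% for Slfn2, 21.6% for Slfn3, 40.2% for Slfn4, 24.2% for Slfn5, 27.1% for Slfn8 and 23.0% for Slfn9. With SN-011, 36.9% was left for Slfn1, 27.4% for Slfn2, 33.2% for Slfn3, 52.0% for Slfn4, 27.6% for Slfn5, 37.0% for Slfn8 and 16.2% for Slfn9. Slfn4 had the highest share with either compound, although with H151 its libraries ranged from 31.7 to 48.8% and those of Slfn1 from 25.5 to 37.1%, which overlap. With SN-011 the Slfn4 libraries ranged from 47.9 to 56.1%. The share of Slfn9 depended on the WT library it was set against, from 8.2 to 23.0% with SN-011 and from 15.6 to 29.2% with H151, the lower share without WT replicate 2. These shares use the same WT and Trex1-KO means and carry no test.

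The 2 antagonists were compared directly for the 7 members. None was called by the edgeR quasi-likelihood test (adjusted p over all genes of 0.525 to 0.878), where 0.158% of all genes tested, 23 genes, were called. DESeq2 and the edgeR exact test called 0 of the 7, and at an unadjusted p under 0.05 there were 2 members, Slfn4 and Slfn8, where 8.91% of all genes tested were under it. Slfn4 was higher with SN-011 by 0.34 on the log2 scale (95% interval 0.04 to 0.63; edgeR adjusted p = 0.525), and its H151 replicate 2, at 87.7 CPM, was above its SN-011 replicate 1, at 86.1 CPM. With 1 H151 library left the difference was 0.66 without replicate 2 and 0.08 without replicate 1, so its size depended on 1 library. Slfn8 was higher with SN-011 by 0.15 (95% interval 0.001 to 0.31; edgeR adjusted p = 0.559). The libraries of the antagonists did not overlap for 3 members, Slfn3 and Slfn8, which were higher with SN-011 in the CPM given above, and Slfn9, which was lower, where 39.7% of all genes did not overlap.

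The remaining intervals of SN-011 minus H151 were -0.07 to 0.48 for Slfn1, -0.12 to 0.23 for Slfn2, -0.03 to 0.62 for Slfn3, -0.14 to 0.26 for Slfn5 and -0.44 to 0.14 for Slfn9. These bounds allow a difference of up to 1.54-fold for Slfn3 and of up to 1.18-fold for Slfn2 and 1.20-fold for Slfn5. The H151 libraries were farther from each other than the SN-011 libraries for Slfn1, at 22.7 and 31.6 against 31.6 and 31.4 CPM. A result that misses the threshold does not show that the compounds act alike.

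**Figure D5:**
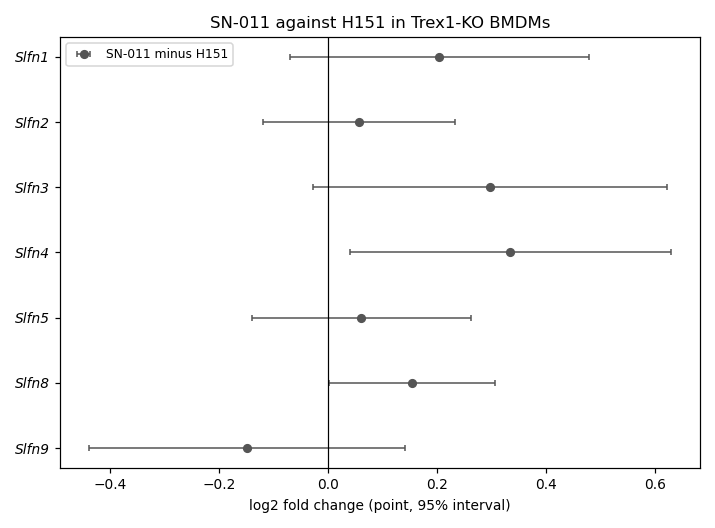
Log2 difference of SN-011 minus H151 in Trex1-KO BMDMs for the 7 Schlafen genes, with 95% intervals. The intervals of Slfn4 and Slfn8 lie just above 0 and the others include it, and no gene passed the edgeR threshold after adjustment.

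Other genes of the interferon pathway were read from a list of 16, all of which were tested. In the comparison of Trex1-KO with WT 10 were called higher and none lower, with a median log2 fold change of 0.46, where 9.27% of all genes tested were called higher. They included Stat2, a signal carrier below the interferon receptor (1.57), Irf7, which amplifies interferon production (2.62), and Usp18, a feedback inhibitor of the receptor (2.63). With H151 6 of the 16 were called lower than in Trex1-KO (1.84% of all genes), with Stat2 at -1.05, Usp18 at -1.28 and Irf7 at -0.93. With SN-011 6 were called lower (2.22% of all genes), with Stat2 at -0.98, Usp18 at -0.99 and Irf7 at -0.75. Neither edgeR nor DESeq2 called any of the 16 between the antagonists, with 3 at an unadjusted p under 0.05, and 7 with H151 (6.79% of all genes) and 9 with SN-011 (6.18% of all genes) were called higher than in WT.

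A second list held genes of tRNA cleavage, a process in which Schlafen proteins act. Of its 8 genes 4 were tested, too few to set a count against the 9.27% of all genes called higher, and Rnh1, the cytosolic ribonuclease inhibitor, was the only one called by edgeR in the comparison of Trex1-KO with WT (log2 0.20), where DESeq2 called 0. Against Trex1-KO neither tool called any of the 4 with either antagonist, with 0 at an unadjusted p under 0.05 with H151 and 1 with SN-011, and Rnh1 was called higher than in WT by edgeR with H151 (0.20), where DESeq2 called 0, and by both tools with SN-011 (0.33).

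Genes whose expression was most like that of each member were found by Pearson r of log2 CPM over the 8 libraries, among 10704 genes outside the family. The points share the 4 groups and the values are a description. Slfn1 was closest to Prr5l, Oasl1 and Ifi213, Slfn2 to Ifit1, Ifit3 and Trim21, and Slfn5 to Ifih1, Ddx58 and Trim30a. Slfn3 and Slfn8 were both closest to Parp12 and Lgals9, with Usp25 and Dck as the third gene, and Slfn9 was closest to Parp14, Zc3hav1 and Rnf213. Slfn4 was closest to Ly9, Treml2 and Apol9b. These r values were between 0.989 and 0.999. Within the family r was highest for Slfn3 with Slfn8 (0.997) and lowest for Slfn4 with Slfn9 (0.775), and Slfn1 and Slfn4 had r = 0.991 with each other.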

How the data were processed

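The authors deposited 1 file of raw read counts per gene for each of the 8 libraries. Per the study's methods, reads were trimmed with Trimmomatic and aligned with HISAT2, and unique pairs were counted. The methods name featureCounts and the submitters' processing notes name HTSeq, with build mm10; versions, annotation release and strand setting are not given in the sources used here. Reads from overlapping or near-identical genes may have been dropped or misassigned.

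Identifiers were matched to GENCODE mouse release 21 (54495 of 54532). Counts were fitted with edgeR 4.0.16 under R 4.3.3. The filter filterByExpr (minimum count 10, total 15) left 14591 genes, libraries were TMM-normalised, and all 8 were fitted with 1 mean per group by the quasi-likelihood F-test, two-sided. P-values were adjusted by Benjamini-Hochberg over all genes that passed the filter and called at 0.05. The scripts were tested on simulated counts. CPM divided by exon length outside overlaps gave per-kilobase values.

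Named genes were the members, 4 relatives, 5 tested genes on each side of the cluster, up to 4 genes of the interferon list by p (1 of which is not reported here), called genes of the tRNA list, the 3 most alike genes per member (mean log2 CPM of 2 or more), and marker lists. Members and lists were chosen with earlier results of these data known. Of the marker lists with few counts, T cell markers summed to 33.4 to 34.4 CPM in WT and 18.7 to 21.9 CPM in the Trex1-KO libraries, nearly all from Cd4, B cell markers to 2.28 to 5.18, NK cell markers to 0 to 0.269 and dendritic cell markers to 1.49 to 2.96. Promoters came from RefSeq (GRCm38.p6). Alternatives were other normalisations (total counts, DESeq2 size factors), filters, tests (DESeq2 1.42.0, edgeR exact test), a replicate block, a fit of 2 groups and each library left out.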

Additional observations from a re-analysis of the deposited data

How the results depend on the processing

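Each member's fold change was recomputed in 6 comparisons with 12 alternatives each, which included leaving out each library of the 2 groups compared. Of the 504 values 486 kept their direction and side of the threshold, 15 crossed the threshold and 3 changed sign. Those 3 were uncalled differences of SN-011 minus H151 without H151 replicate 1, at log2 -0.004 for Slfn1, -0.016 for Slfn2 and -0.055 for Slfn5, the lowest values with a library left out; the highest were 0.47, 0.136 and 0.19. All 7 members stayed higher in Trex1-KO than in WT, and lower with H151, in every alternative. Between the antagonists 1 member, Slfn4, was called with a filter at 1 count (log2 0.34, edgeR adjusted p = 0.00637). With an H151 library left out its difference was 0.08 or 0.66. Against WT, 4 to 7 members were called with H151 with a library left out, and with scaling to total counts alone Slfn2 was not called (edgeR adjusted p = 0.0667). Slfn9 with SN-011 against WT was called with a filter at 1 count (edgeR adjusted p = 0.00903), the edgeR exact test (0.0364), the fit of 2 groups (0.0382) and without WT replicate 1 (0.00748), and was farthest from it without WT replicate 2 (log2 0.16, edgeR adjusted p = 0.566). The labels do not say what the replicate numbers mean, and deviations of same-numbered libraries correlated at -0.02 to 0.19, which did not meet the bar for pairing; a shared preparation of same-numbered libraries was not tested. With the number as a block Slfn9 was called in that comparison (log2 0.41, edgeR adjusted p = 0.0497), no other member changed its call, and calls between the antagonists went from 23 to 44 genes. Over all genes, scaling to total counts changed 1352 higher and 1038 lower calls in Trex1-KO against WT to 946 and 1598, with the median at -0.09. A filter at 1 count gave 131 higher and 394 lower calls for H151 and 194 and 485 for SN-011 against Trex1-KO, and 152 and 114 between the antagonists, against 56 and 269, 16 and 324, and 0 and 23. With 2 libraries in a group, small differences such as those between the antagonists were not resolved.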
